A study of Mus musculus with 18 samples.

Results

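The genes described here are 41 genes of the extracellular matrix and of the stromal cells that make it. They were chosen by symbol for what their products do, with earlier results of these data known. The rule that names them uses no measured value. Of the 41, 39 had a probe set that the array annotation gave to that 1 symbol, out of 18193 genes so measured. Fbn1 was not measured here, and the probe sets for Loxl2 carried a further symbol, so both were left out. After a filter on low signal (probe sets above the median of mean log2 signal), 38 of the 39 remained among 11238 genes, and Postn did not pass.

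The arrays measured RNA of mouse ovarian follicles cultured with anti-Müllerian hormone (AMH), a hormone of the TGF-beta superfamily that granulosa cells of growing follicles secrete. Preantral to small antral follicles came from female mice of 6 to 8 weeks, of a strain labelled C57BL/6Ntac in the sample records and C57BL/6Tac in the design text. The 6 groups were vehicle, 50 ng/mL AMH and 200 ng/mL AMH for 24 h, and the same 3 for 12 h, with 3 arrays each (18 in all). Every group, vehicle included, was in medium with 80 IU/L FSH and 10 IU/L LH. Follicles of 7 mice were pooled for each experiment and divided over the 3 doses, so that each time had 3 pools (1 to 3), and each array holds the follicles of several animals. The protocols call each pool 1 biological sample. By the submitters' account samples can be compared inside 1 experiment, and doses were compared within pools. The number of arrays limits the precision of every value below.

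A follicle holds an oocyte and granulosa cells inside a basement membrane, a sheet of type IV collagen, laminins, nidogens and perlecan. Outside it lie theca cells, fibroblasts, vessels and smooth muscle-like cells in a matrix of fibrillar collagens, small proteoglycans and glycoproteins. Lysyl oxidases cross-link collagen and elastin. Granulosa cells add to the basement membrane as the follicle expands, while most fibrillar collagen is made by cells of the theca and stroma.

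One array, AMH 50 ng/mL for 12 h in pool 3, stood apart and is given separately. Across probe sets its correlation with the other arrays was 0.604 to 0.624, against 0.904 to 0.992 among the other 17, and the mean over the spiked hybridisation controls was 32128, against 1582 to 3879 on the others. All comparisons of doses below rest on the other 17 arrays, which leaves 2 pools for AMH 50 ng/mL at 12 h. Pool 3 at 12 h with AMH 200 ng/mL, which was kept, showed a poly-A control signal of 5451, against at most 1606 outside that pool. The median correlation of that array with the others was 0.920, against 0.961 to 0.983 for the other arrays kept. Its median signal over probe sets was 18.0, against 23.1 to 36.5. Signals are the authors' MAS5 values on a linear scale. Differences are in log2(signal + 16), which understates the change of dim genes, with a standard error (SE) from limma. A gene was called at an adjusted p of 0.05. Levels of different genes were not compared, since each probe set has a scale of its own.

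Sequences before 4 of the genes are shown, from a set of 9 whose transcripts lay higher with AMH 50 ng/mL in every pool at 24 h and lower in both pools at 12 h, as described below. The promoter table used here (RefSeq, GRCm38.p6) held 6 of the 9, and for these 4 its window ended at the start of the gene record. For Col5a1 and Col15a1 the start in that table lay inside the gene record, and they are not shown. Each sequence is the 250 bases before the start, written 5′ to 3′ on the strand of the gene, with matches to CCAAT or TATAAA on either strand in capitals (ATTGG and TTTATA on the other strand). Col1a2 is at chr6:4505368-4505617 (+ strand), Col3a1 at chr1:45311288-45311537 (+ strand), Nid1 at chr13:13437352-13437601 (+ strand) and Thbs2 at chr17:14694263-14694512 (- strand).
Col1a2: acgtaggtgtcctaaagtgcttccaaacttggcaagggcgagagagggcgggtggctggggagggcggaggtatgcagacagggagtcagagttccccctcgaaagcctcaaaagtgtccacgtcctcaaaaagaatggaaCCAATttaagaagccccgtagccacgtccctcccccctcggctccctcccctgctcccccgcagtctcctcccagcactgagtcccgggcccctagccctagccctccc
Col3a1: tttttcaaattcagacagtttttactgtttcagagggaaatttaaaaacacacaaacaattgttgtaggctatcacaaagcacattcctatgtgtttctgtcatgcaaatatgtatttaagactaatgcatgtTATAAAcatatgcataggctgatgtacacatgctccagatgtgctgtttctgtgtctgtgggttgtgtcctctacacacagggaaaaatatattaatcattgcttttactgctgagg
Nid1: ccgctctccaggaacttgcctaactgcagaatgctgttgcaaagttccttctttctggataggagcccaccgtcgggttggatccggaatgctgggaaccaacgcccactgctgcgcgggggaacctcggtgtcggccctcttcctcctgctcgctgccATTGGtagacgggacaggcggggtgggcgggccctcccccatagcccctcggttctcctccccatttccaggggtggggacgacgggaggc
Thbs2: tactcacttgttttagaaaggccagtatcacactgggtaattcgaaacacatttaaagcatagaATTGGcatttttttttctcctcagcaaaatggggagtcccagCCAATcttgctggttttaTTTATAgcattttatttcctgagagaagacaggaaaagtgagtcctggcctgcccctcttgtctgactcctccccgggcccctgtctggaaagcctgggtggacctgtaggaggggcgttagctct

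CCAAT, the box bound by the factor NF-Y, occurred on either strand in the 250 bases before the start given in that table for 7 of the 25 genes with an entry (28.0%), against 37.5% of the 27025 genes of the table. GGCGCC occurred in 5 of the 25 (20.0%), against 10.8% of all genes. TATAAA also occurred in 5 (20.0%), against 14.3%. The CArG box, which serum response factor binds before smooth muscle genes, was searched as CCWWWWWWGG (W is A or T). It occurred in none of the 25 and in 1.62% of all genes. Other forms of the box, bases further away and genes without an entry were not searched. The matches to all these motifs describe letters in the windows and no binding was measured. Col4a1 and Col4a2, the paired chains of type IV collagen, lie head to head on chromosome 8, and their windows from 250 bases before to 50 after the start share 78 bases.

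The vehicle pools differed more for these genes than for genes in general. Vehicle pool 3 had the highest of the 3 vehicle signals for 33 of 39 genes at 12 h and for 29 of 39 at 24 h. Over all genes, pool 3 was the highest for 33.9% at 12 h and for 38.5% at 24 h. The range over the 3 vehicle arrays had a median of 1.22 at 12 h for the 39 genes (2.33-fold), against 0.52 for all genes, and of 0.68 at 24 h, against 0.35. For example Col1a1, a chain of type I collagen, had 367, 312 and 1461 in the vehicle arrays of 12 h (pools 1 to 3) and 362, 363 and 869 in those of 24 h. Its pool 3 was the highest at both times. Lum, which encodes the fibril-binding proteoglycan lumican, had 80.2, 37.8 and 262 at 12 h and 83.8, 111 and 361 at 24 h. Pool 3 was again the highest at both times. Nid2, encoding the basement membrane linker nidogen 2, had 57.6, 57.0 and 279 at 12 h and 43.8, 33.4 and 153 at 24 h. In bulk samples such as these, fewer cells of a type and less RNA per cell cannot be told apart. In the comparisons of 3 pools the 38 genes had a median SE of 0.321, against 0.196 over all genes.

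**Figure D1:**
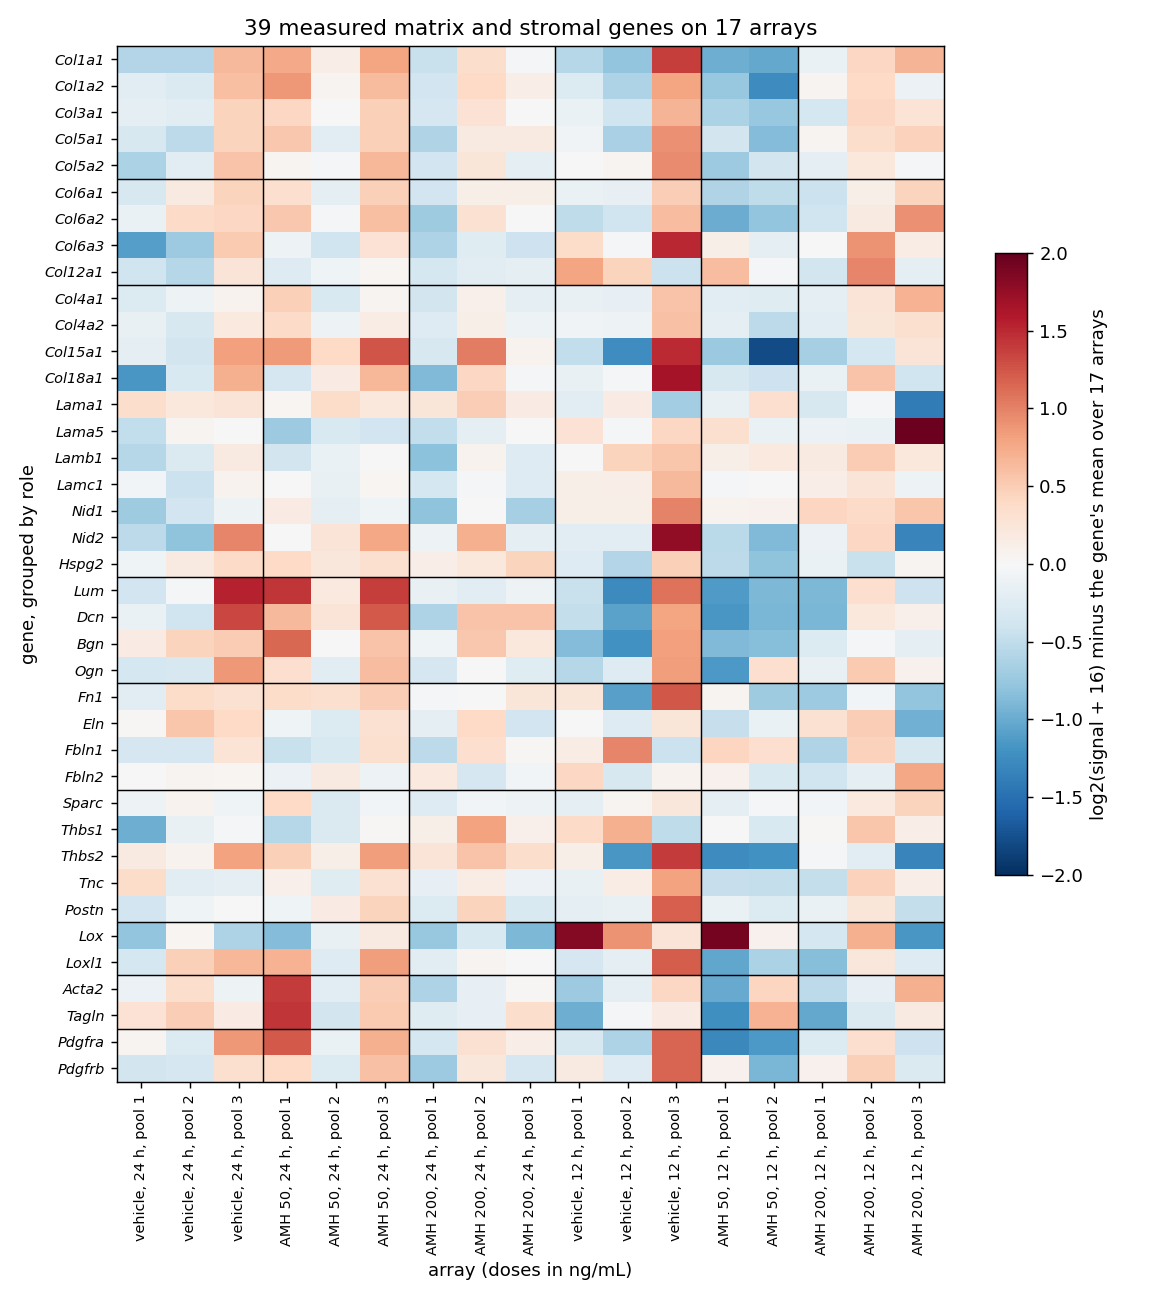
Each row is 1 of 39 genes and each column 1 of 17 arrays; colour gives log2(signal + 16) minus the mean of the gene over the 17 arrays, with lines between role groups and between sample groups. Vehicle pool 3 at 12 h is red in most rows (highest of the 3 vehicle arrays for 33 of 39 genes), and vehicle pool 3 at 24 h for 29.

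The first comparison was AMH 50 ng/mL against vehicle at 24 h, which asks what the lower dose did to matrix transcripts after a day. Of the 39 genes, 34 lay higher with AMH and 5 lower, with a median difference of 0.20, against 0.003 over all genes. No gene passed the limma test: 0 of 38 had an adjusted p under the threshold (lowest 1.00), as did 0% of all probe sets, and 1 of 38 had an unadjusted p under 0.05, against 2.70% of all probe sets. The 3 pools differed in size, with medians of 0.66, 0.12 and 0.03. The AMH 50 ng/mL array of pool 1 had a poly-A control signal of 1606, against at most 1094 on the other 24 h arrays. Its hybridisation controls had a mean of 2974, against at most 2200. The part of this in the pool 1 values was not tested. With pool 1 left out the median was 0.05, with 24 of 39 higher. In every pool, 10 of the 39 were higher, against 11.8% of all genes, and 2 were lower, against 11.7%.

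The fibrillar collagens were the group with the most even direction, since 5 of 5 were higher in every pool. Col1a1 had 939, 609 and 961 with AMH 50 ng/mL, against 362, 363 and 869 with vehicle. The AMH array was the higher one in each pool, and the groups overlapped through the vehicle array of pool 3. The difference was 0.73 (SE 0.33, adjusted p = 1.00, limma). Col3a1, encoding type III collagen, had 1766, 1307 and 1837 with AMH, against 1162, 1124 and 1805 with vehicle (0.28, SE 0.24). Pool 3 was nearly equal at both doses. Col15a1, a basement membrane collagen, had 648, 473 and 870, against 309, 270 and 633 with vehicle, and the difference of 0.75 (SE 0.41, adjusted p = 1.00) was the highest of the 39.

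Among small proteoglycans, 4 of 4 were higher on average and 0 in every pool. Lum had 337, 133 and 323 with AMH 50 ng/mL, against 83.8, 111 and 361 with vehicle (0.63, SE 0.49). Most of that difference lay in pool 1. Dcn, encoding decorin, had 1155, 878 and 1731, against 666, 553 and 1863 with vehicle (0.44, SE 0.36). The basement membrane group had 9 of 11 higher, 2 in every pool. Col4a1 had 2853, 1669 and 2130 with AMH, against 1691, 1918 and 2156 (0.18, SE 0.20), so that pool 1 alone was higher. Lama5, a laminin chain, had 57.7, 83.1 and 77.6 with AMH, against 70.5, 110 and 105 (-0.32, SE 0.29), lower in each pool. Lama1, another laminin chain, differed by -0.07 (SE 0.14). Eln, encoding elastin, had 25.9, 20.5 and 38.6, against 29.1, 49.3 and 42.3 (-0.35, SE 0.33), also lower in each pool.

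The contractile genes differed most in pool 1. Acta2, encoding smooth muscle actin, had 2590, 825 and 1382 with AMH 50 ng/mL, against 898, 1250 and 903 with vehicle (0.51, SE 0.33). The pool 1 array with AMH was the highest of the 17 for this gene. Tagln, encoding transgelin, had 532, 143 and 276, against 234, 270 and 213 with vehicle (0.21, SE 0.34). Pool 1 and pool 2 went opposite ways for both genes. Fn1, encoding fibronectin, had 358, 347 and 393, against 233, 357 and 341 (0.25, SE 0.39). Pdgfra and Pdgfrb, the receptors by which PDGF acts on mesenchymal cells, were both higher on average (median 0.37), and Pdgfrb in every pool.

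Markers of other cells moved in the same comparison. The oocyte list had a median difference of -0.91 (14 of 15 lower) and pool medians of -0.18, -0.74 and -1.57, and its summed signal was 1191 to 5143 with AMH 50 ng/mL, against 1925 to 8626 with vehicle. The leukocyte list had 13 of 13 lower (median -0.65), and its sum was 627 to 1543, against 1141 to 2653. The surface epithelium list had 12 of 12 lower (median -0.76), and its sum was 3826 to 4629, against 4936 to 8916. The granulosa list had 10 of 12 lower (median -0.17), with sums of 10574 to 15292, against 12971 to 13988. The theca list had 7 of 9 higher (median 0.15) and the smooth muscle and pericyte list 11 of 12 (median 0.26), and 10 of 11 mesenchymal markers outside the 41 genes were higher (median 0.11). Mesenchymal sums were 2124 to 3645 with AMH, against 2345 to 3324 with vehicle. None of these list genes passed the test, no marker was measured at 0, and the part of these cells in the collagen values was not tested. Ptprc, Adgre1 and Aif1 of the leukocyte list lay below the array median on 17 of 17 arrays, as did Lmod1 of smooth muscle.

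AMH 200 ng/mL against vehicle at 24 h asked the same of the higher dose. Of the 39 genes, 14 lay higher and 25 lower, with a median of -0.08, against 0.008 over all genes. By limma 0 of 38 passed (lowest adjusted p 1.00), as did 0% of all probe sets, and 1 of 38 had an unadjusted p under 0.05, against 1.66% of all probe sets. The pool medians had both signs, at -0.09, 0.37 and -0.42, and with pool 3 left out the median was 0.10. In every pool, 2 genes were higher, against 15.9% of all genes, and 4 were lower, against 12.7%.

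Thbs1 stood at the top of this comparison. It encodes thrombospondin 1, a matricellular protein that activates latent TGF-beta. Its signals were 405, 660 and 400 with AMH 200 ng/mL, against 181, 333 and 362 with vehicle. The AMH array was higher in each pool and the groups did not overlap. The difference was 0.73 (SE 0.24), with an adjusted p of 1.00 (limma). It was also higher with AMH 200 than with AMH 50 ng/mL at 24 h in 3 of 3 pools (244, 300 and 380 with AMH 50), by 0.62 (SE 0.24, adjusted p = 1.00, limma). At 12 h it had 376, 550 and 409 with AMH 200 ng/mL, against 488, 617 and 258 with vehicle, higher in 1 of 3 pools.

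Lum was the lowest, at -0.53 (SE 0.49), with 101, 96.1 and 105 with AMH 200 ng/mL, against 83.8, 111 and 361 with vehicle. Only pool 3 was far apart. Col6a2, a chain of the microfibrillar type VI collagen, had 563, 1155 and 927, against 844, 1210 and 1247 with vehicle (-0.35, SE 0.22), lower in each pool. Eln was lower in each pool as well, with a difference of -0.38 (SE 0.33). Col1a1 differed by 0.13 (SE 0.33), Col3a1 by -0.02 (SE 0.24), Col4a1 by -0.05 (SE 0.20), Col15a1 by 0.17 (SE 0.41), Nid2 by 0.25 (SE 0.59), Dcn by -0.10 (SE 0.36), Fn1 by -0.08 (SE 0.39), Acta2 by -0.30 (SE 0.33) and Tagln by -0.34 (SE 0.34). Each of those 9 had pools of both signs. The leukocyte list was again lower (13 of 13, median -0.57, sums of 518 to 1392, against 1141 to 2653 with vehicle), and so was the surface epithelium list (12 of 12, median -0.65, sums of 3588 to 4593, against 4936 to 8916). Their part in these values was not tested.

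The doses were also compared directly at 24 h. With AMH 200 ng/mL, 35 of the 39 genes were lower than with AMH 50 ng/mL and 4 higher, with a median of -0.33, against 0.005 over all genes. By limma 0 of 38 passed (lowest adjusted p 1.00), as did 0% of all probe sets, and 4 of 38 had an unadjusted p under 0.05, against 4.17% of all probe sets. Pools 1 and 3 had medians of -0.64 and -0.48, and pool 2 had 0.26, with 33 of 39 genes higher. In every pool, 3 genes were lower, against 12.4% of all genes, and 2 were higher, against 15.1%. With pool 1 left out the median was -0.09.

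Lum had 101, 96.1 and 105 with AMH 200 ng/mL, against 337, 133 and 323 with AMH 50 ng/mL. It was lower in each pool and the groups did not overlap. The difference was -1.16 (SE 0.49), with an adjusted p of 1.00 (limma). Acta2 had 632, 871 and 985, against 2590, 825 and 1382 (-0.80, SE 0.33), with pool 2 nearly equal. Col1a1 had 402, 705 and 540, against 939, 609 and 961 (-0.60, SE 0.33), with pool 2 the other way. Dcn differed by -0.54 (SE 0.36), Tagln by -0.55 (SE 0.34), Fn1 by -0.33 (SE 0.39), Col3a1 by -0.30 (SE 0.24) and Col4a1 by -0.23 (SE 0.20). Fn1 was lower in each pool. Lama5 differed by 0.24 (SE 0.29) and Lama1 by 0.10 (SE 0.14). Oocyte markers ran the other way, with 14 of 15 higher at AMH 200 ng/mL (median 1.00, sums of 1825 to 7660, against 1191 to 5143), theca markers had 9 of 9 lower (median -0.26), and mesenchymal markers 10 of 11 lower (median -0.32). What these cells add to the values was not tested.

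**Figure D2:**
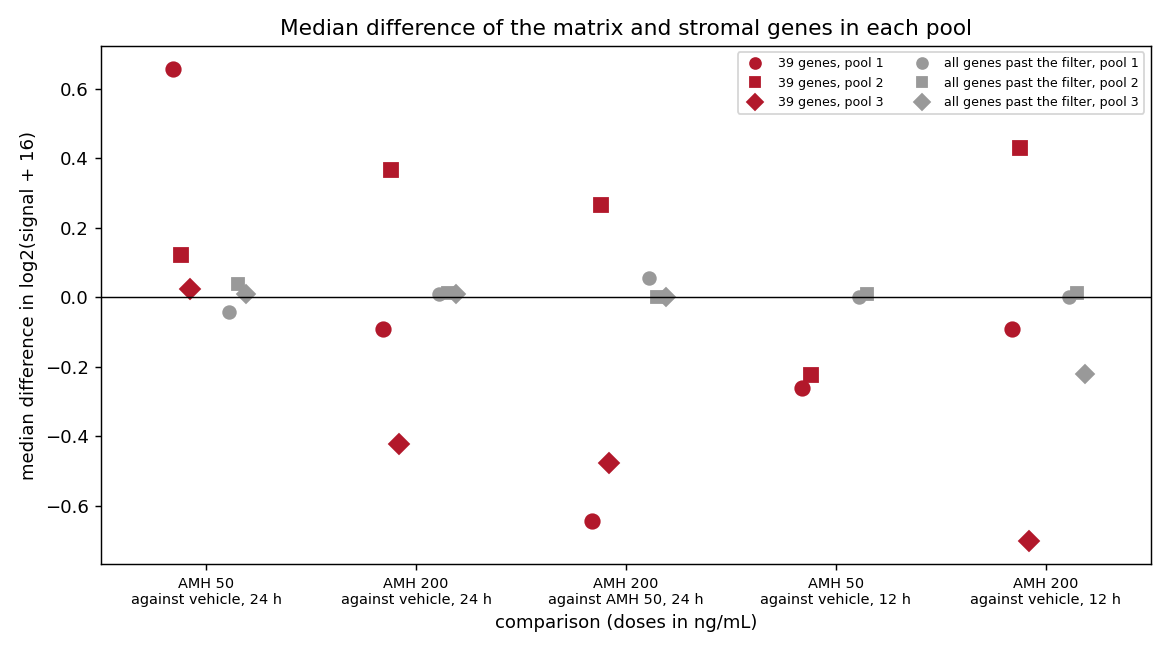
Points give the median difference in log2(signal + 16) in each pool, in red for the 39 genes and in grey for all 11238 genes. The red points of AMH 50 ng/mL at 24 h lie at 0.66, 0.12 and 0.03 and those of AMH 200 ng/mL at 24 h at -0.09, 0.37 and -0.42, while the grey points stay near 0 except in pool 3 of AMH 200 ng/mL at 12 h (-0.22).

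At 12 h, AMH 50 ng/mL could be compared with vehicle in 2 pools. Of the 39 genes, 34 lay lower and 5 higher, with a median of -0.41, against -0.04 over all genes. The limma fit called 0 of 38 (lowest adjusted p 0.862) and 0% of all probe sets, and 3 of 38 had an unadjusted p under 0.05, against 5.71% of all probe sets. The fitted value also draws on the vehicle and AMH 200 ng/mL arrays of pool 3, and within the 2 pools the medians were smaller, at -0.26 and -0.22. In both pools 24 genes were lower, against 27.3% of all genes, and 1 was higher, against 28.2%. Without the pool 3 arrays of 12 h the median was -0.26. With the array that stood apart in the fit the median was -0.38, and Col1a1 and Col3a1 took the other sign, at 0.57 and 0.53.

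The fibrillar collagens were lower in both pools (5 of 5), as were the type VI and XII collagens (4 of 4) and the PDGF receptors (2 of 2). Thbs2, encoding thrombospondin 2, had 25.1 and 26.3 with AMH 50 ng/mL, against 90.2 and 27.8 with vehicle in the same pools (-1.23, SE 0.57, adjusted p = 0.862, limma). Of the 2 pools, only pool 1 was far apart. The fitted value also draws on pool 3 of 12 h, where Thbs2 had 23.1 with AMH 200 ng/mL, against 241 with vehicle. Pdgfra had 151 and 166, against 309 and 249 with vehicle (-1.10, SE 0.48). Nid2 had 43.2 and 30.8, against 57.6 and 57.0 (-1.06, SE 0.69). Both genes were lower in each pool, and the groups did not overlap within the 2 pools. Col1a1 had 273 and 265, against 367 and 312 (-0.57, SE 0.39), and Col3a1 had 841 and 772, against 1205 and 1001 (-0.56, SE 0.28). Col4a1 differed by -0.09 (SE 0.23).

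Pools of both signs were found for 14 of the 39 genes, among them Lum (-0.51, SE 0.58), Dcn (-0.45, SE 0.42), Fn1 (-0.24, SE 0.45), Acta2 (0.20, SE 0.39), Tagln (0.27, SE 0.40) and Lama5 (0.27, SE 0.34). Without the pool 3 arrays of 12 h, Fn1 and Lama5 took the other sign, at 0.10 and -0.029. The oocyte list had 15 of 15 lower in both pools (median -0.86, sums of 2827 to 7954 with AMH, against 613 to 11509 over the 3 vehicle arrays). Surface epithelium had 12 of 12 higher on average (median 0.38), and smooth muscle and pericyte markers had 8 of 12 lower (median -0.47). Endothelial markers had 9 of 12 lower (median -0.40), theca markers 7 of 9 (median -0.22) and mesenchymal markers outside the 41 genes 8 of 11 (median -0.20, with -0.10 and 0.33 in the 2 pools). Their part was not tested.

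The differences at AMH 50 ng/mL had opposite signs at the 2 times for many of the genes. Higher in every pool at 24 h and lower in both pools at 12 h were 9 of the 39 (23.1%), against 3.02% of all genes. They were Col1a1, Col1a2, Col3a1, Col5a1, Col5a2, Col15a1, Nid1, Thbs2 and Pdgfrb. In pool 3 at 24 h some were nearly equal, with 1953 against 1912 with vehicle for Col1a2 and 158 against 155 for Thbs2. Others were further apart, such as Col15a1 with 870 against 633. The genes also varied together between pools (vehicle pool 3 was the highest for 29 of 39 at 24 h). The 9 are therefore not separate observations. The difference of the effects, 24 h minus 12 h, had a median of 0.58, against 0.04 over all genes, with 35 of 39 above 0. By limma 0 of 38 passed this test (lowest adjusted p 0.999), as did 0% of all probe sets, and 7 of 38 had an unadjusted p under 0.05, against 3.26% of all probe sets. The highest fitted values were Nid2 at 1.52 (SE 0.90), Pdgfra at 1.48 (SE 0.63) and Col15a1 at 1.42 (SE 0.63). Col1a1 differed by 1.30 (SE 0.52), Col3a1 by 0.83 (SE 0.37), Lum by 1.14 (SE 0.76) and Dcn by 0.90 (SE 0.55). Smaller values belonged to Fn1 (0.49, SE 0.60), Acta2 (0.31, SE 0.51) and Col4a1 (0.27, SE 0.30), and Tagln (-0.06, SE 0.52), Fbln2 (-0.07, SE 0.40), Lama1 (-0.10, SE 0.22) and Lama5 (-0.59, SE 0.45) lay below 0. The 12 h part of these fitted values also draws on the vehicle and AMH 200 ng/mL arrays of pool 3. For Nid2 those arrays had 279 and 18.5. Its 2 pools with AMH 50 ng/mL had 43.2 and 30.8, against 57.6 and 57.0 with vehicle. The sizes and their order therefore rest in part on pool 3. Within the pools with AMH 50 ng/mL, the mean pool medians of the 39 genes differed by 0.51 between times. With all 18 arrays in the fit, Col3a1 took the other sign at -0.25, as did Lama1 at 0.31 and Fbln2 at 0.28. The times came from different pools.

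**Figure D3:**
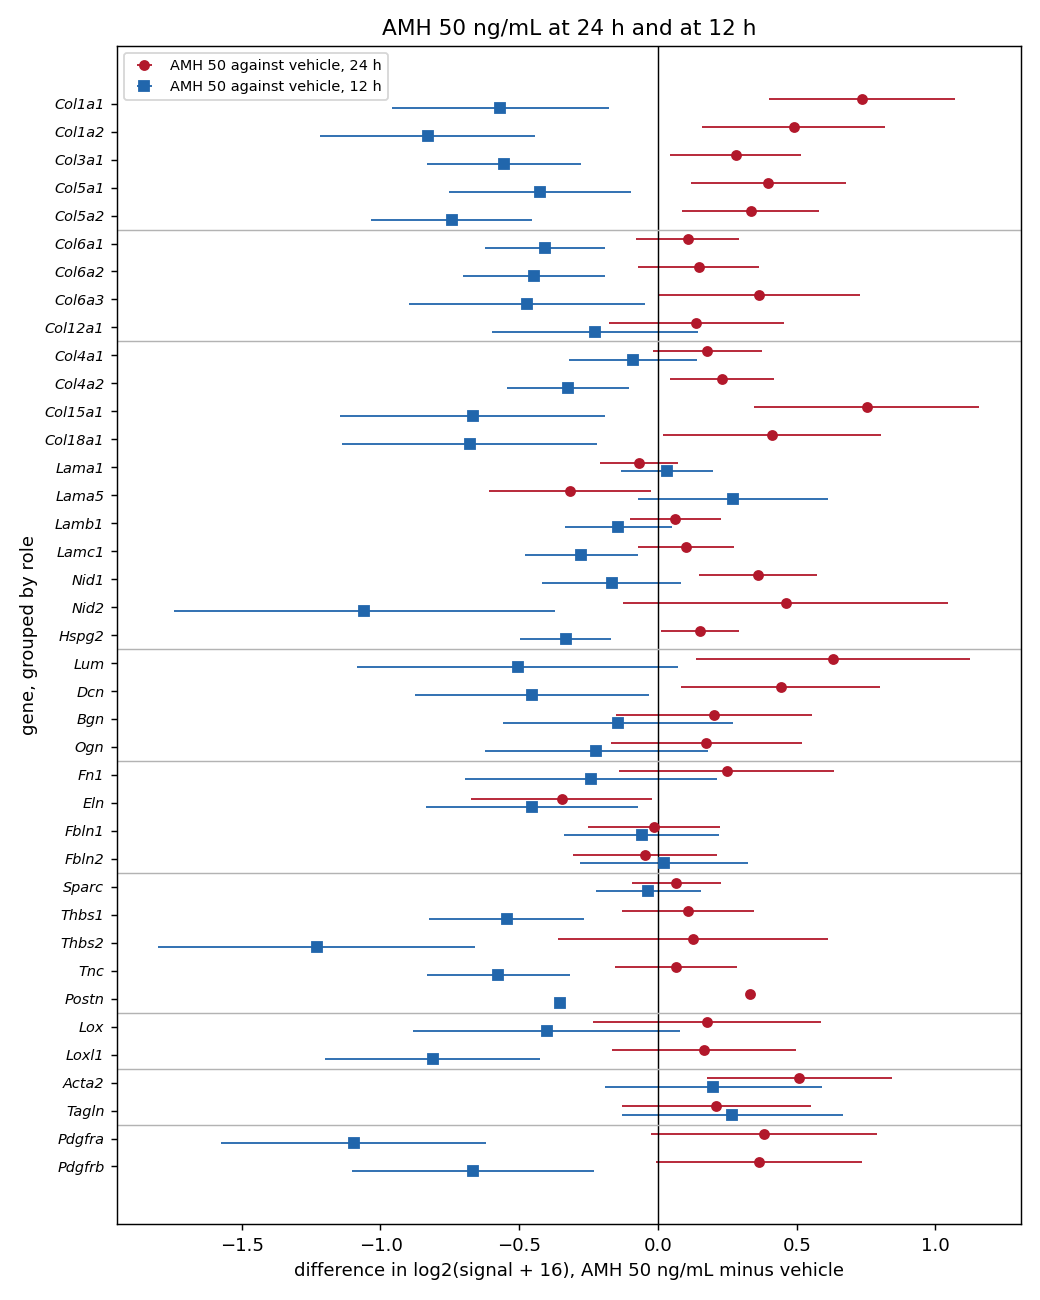
For each of the 39 genes, grouped by role, the fitted difference of AMH 50 ng/mL minus vehicle in log2(signal + 16) is shown at 24 h (red circles, 3 pools) and at 12 h (blue squares, 2 pools), with bars of 1 SE (none for Postn, which was not tested). At 24 h 34 of 39 points lie above 0, at 12 h 34 of 39 lie below it, and 5 of 5 fibrillar collagens are among both.

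AMH 200 ng/mL against vehicle at 12 h gave no common direction. Of the 39 genes, 15 lay higher and 24 lower, with a median of -0.05, against -0.07 over all genes. None passed in limma, 0 of 38 (lowest adjusted p 0.432), as did 0% of all probe sets, and 2 of 38 had an unadjusted p under 0.05, against 11.4% of all probe sets. The pool medians were -0.09, 0.43 and -0.70, and all genes had -0.22 in pool 3, whose AMH 200 ng/mL array had the high spike controls given above. In every pool, 3 genes were higher, against 9.09% of all genes, and 2 were lower, against 13.6%. With pool 3 left out the median was 0.19, and with pool 2 left out it was -0.32.

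Lox, encoding the lysyl oxidase that cross-links collagen and elastin, was the lowest. It had 54.8, 132 and 24.4 with AMH 200 ng/mL, against 308, 153 and 92.4 with vehicle. It was lower in each pool, while the groups overlapped. The difference was -1.27 (SE 0.41, adjusted p = 0.432, limma), and without pool 2 it was -1.81 with an adjusted p of 0.0411. Fn1 had 160, 262 and 152, against 326, 121 and 673 (-0.66, SE 0.39), and without pool 2, which went the other way, it was -1.50 with an adjusted p of 0.0343. Without pool 2, 2 of the 38 genes were called, beside 1% of all probe sets (226), and no gene of the 38 was called in the other alternatives of this comparison. Nid2 had 63.3, 98.8 and 18.5, against 57.6, 57.0 and 279 (-0.78, SE 0.59), so that its average came from pool 3.

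Lama5 had 96.5, 94.5 and 456 with AMH 200 ng/mL, against 133, 102 and 146 with vehicle (0.35, SE 0.29), and its average also came from pool 3. Col6a2 had 696, 1054 and 1755, against 649, 702 and 1428 (0.32, SE 0.22), higher in each pool, and Acta2 was higher in each pool by 0.17 on average (SE 0.33). Col1a1 differed by 0.31 (SE 0.33), Col3a1 by 0.06 (SE 0.24), Col4a1 by 0.17 (SE 0.20), Lum by -0.12 (SE 0.49), Dcn by 0.04 (SE 0.36) and Tagln by -0.09 (SE 0.34), all with pools of both signs. Surface epithelium markers had 12 of 12 higher on average (median 0.56, sums of 5790 to 17323, against 4411 to 7436 with vehicle), with 1.66 in pool 3. Endothelial markers had 11 of 12 lower (median -0.38, sums of 1566 to 2420, against 1548 to 5599), with -1.58 in pool 3. Their part in the pool 3 values was not tested.

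The effect of AMH 200 ng/mL at 24 h minus that at 12 h had a median of 0.006, against 0.08 over all genes, with 20 genes above 0 and 19 below. By limma 0 of 38 passed (lowest adjusted p 0.628), as did 0% of all probe sets, and 1 of 38 had an unadjusted p under 0.05, against 7.19% of all probe sets. The highest were Lox at 1.07 (SE 0.58), Nid2 at 1.03 (SE 0.83) and Thbs1 at 0.69 (SE 0.34), and the lowest Col6a2 at -0.68 (SE 0.31), Acta2 at -0.46 (SE 0.47) and Lama5 at -0.43 (SE 0.41). Fn1 had 0.58 (SE 0.55), Dcn -0.14 (SE 0.51), Lum -0.41 (SE 0.70), Tagln -0.24 (SE 0.48), Col1a1 -0.18 (SE 0.47), Col3a1 -0.08 (SE 0.34) and Col4a1 -0.22 (SE 0.28). No gene of the 39 was higher in every pool at 24 h and lower in every pool at 12 h, against 2.51% of all genes, and 2 were the other way, against 1.6%.

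**Figure D4:**
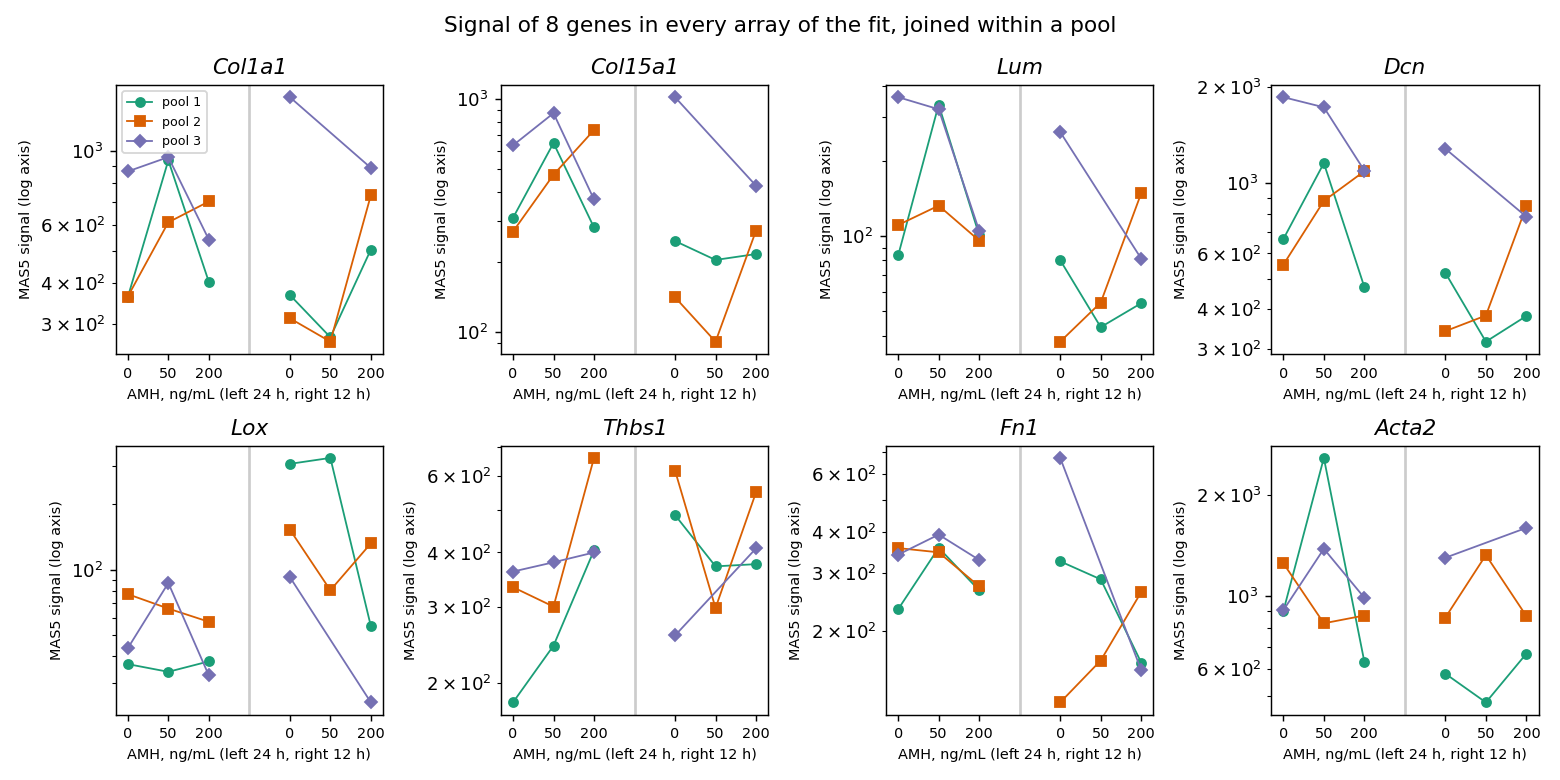
MAS5 signal on a log axis of 8 genes at 0, 50 and 200 ng/mL AMH, at 24 h on the left and 12 h on the right of each panel, with the arrays of 1 pool joined by a line; AMH 50 ng/mL at 12 h has 2 pools. Thbs1 is highest at 200 ng/mL in each 24 h pool and Lum at 200 ng/mL and 24 h lies between 96.1 and 105.

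Vehicle at 24 h was set against vehicle at 12 h to see how these genes stood after a longer culture. Of the 39 genes, 17 lay higher and 22 lower at 24 h, with a median of -0.08, against -0.003 over all genes. In limma 0 of 38 passed (lowest adjusted p 0.112) among 292 probe sets called (1.3%), and 4 of 38 had an unadjusted p under 0.05, against 18.6% of all probe sets. With the replicate number as a block, 642 probe sets (2.85%) and 1 of the 38 genes were called. That gene was Col6a3, a chain of type VI collagen, at -1.05 (SE 0.20, adjusted p = 0.0479), against an SE of 0.48 without the block. All 24 h arrays lay below all 12 h arrays for 3 of the 39 genes, against 12.4% of all genes, and above them for 1, against 13.9%. Each time had 3 pools of its own, and same-numbered vehicle arrays of the 2 times deviated together (correlations of 0.207 to 0.318, median 0.261). Arrays of the same pool correlated about as much, with a median of 0.252. What the same-numbered arrays of the 2 times shared was not tested.

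Lox had 36.7, 77.1 and 43.4 at 24 h, against 308, 153 and 92.4 at 12 h. The groups did not overlap. The difference was -1.45 (SE 0.40, adjusted p = 0.112, limma), and it was called without the 12 h vehicle array of pool 3 (-1.82, adjusted p = 0.0330), with 2.46% of all probe sets, and with array weights (-1.91, adjusted p = 0.0297), with 3.46%. Nid1, encoding nidogen 1, had 493, 624 and 760 at 24 h, against 889, 888 and 1636 at 12 h (-0.81, SE 0.26), also without overlap. Col6a3 had 129, 173 and 433, against 386, 289 and 869. Its groups overlapped through pool 3 of 24 h.

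On the other side stood Bgn, encoding the proteoglycan biglycan, with 961, 1166 and 1217 at 24 h, against 462, 360 and 1517 at 12 h (0.79, SE 0.45). Without the 12 h array of pool 3, where 2.46% of all probe sets were called, it was called at 1.41 (adjusted p = 0.0111). Tagln had 234, 270 and 213, against 88.1, 183 and 213 (0.60, SE 0.30), and Lum differed by 0.58 (SE 0.65), Dcn by 0.52 (SE 0.54) and Acta2 by 0.21 (SE 0.28). Col1a1 (-0.18, SE 0.56), Col3a1 (-0.04, SE 0.29), Col4a1 (-0.19, SE 0.21) and Fn1 (0.01, SE 0.50) differed by less than their SE. Granulosa markers had 11 of 12 higher at 24 h (median 0.89, 2 called, sums of 12971 to 13988, against 5918 to 9719) and endothelial markers 10 of 12 lower (median -0.58, sums of 1107 to 2284, against 1548 to 5599). Theca markers had 7 of 9 higher (median 0.40). In the leukocyte list 1 of 9 markers tested was called lower and 1 of 12 in the surface epithelium list higher, against 1.3% of all probe sets. Their part was not tested.

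Other genes of matrix biology were counted in the same fits. In the dose comparisons no gene passed in limma among the genes tested, which were 16 of collagen assembly, 30 of 41 measured other matrix proteins, 20 of 23 matrix receptors, 19 of the TGF-beta pathway and 4 PDGF ligands. Between times, where 1.3% of all probe sets were called, 1 of the 30 other matrix proteins tested was called higher at 24 h: Col4a5, a type IV collagen chain, at 1.81 (SE 0.30, adjusted p = 0.0401, limma). Of the 20 matrix receptors tested, 1 was called higher and 2 lower: the integrin Itga9 at 1.11 (SE 0.16, adjusted p = 0.0270), and the hyaluronan receptor Cd44 at -1.72 (SE 0.19, adjusted p = 0.0149) and the integrin Itga2 at -1.66 (SE 0.26, adjusted p = 0.0356). At AMH 50 ng/mL and 24 h, 15 of 16 collagen assembly genes lay higher (median 0.15), as did 29 of 41 other matrix proteins (median 0.12), against 50.9% of all genes. Prelp, a leucine-rich proteoglycan, had the highest difference of that list at 0.75 (SE 0.25, adjusted p = 1.00). At AMH 50 ng/mL and 12 h, 10 of 16 collagen assembly genes lay lower (median -0.19), as did 34 of 41 other matrix proteins (median -0.34), while 43.5% of all genes lay higher.

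The array that stood apart gave most of these genes, and most genes in general, signals outside the range of the other 17 arrays. In AMH 50 ng/mL, 12 h, pool 3, 14 of the 39 genes lay above all other 17 arrays (35.9%, against 23.5% of all genes) and 19 below all of them (48.7%, against 49.9%). The fibrillar collagens had 5 of 5 above, with 7382 for Col1a1, against 1461 in the vehicle array of the same pool. Ogn, encoding osteoglycin, had 7232, against 160. Basement membrane genes had 0 of 11 above and 8 below, with 83.6 for Col4a2, against 2505. Col6a1 had 1.65, against 1510. Both PDGF receptors lay above all other arrays.

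**Figure D5:**
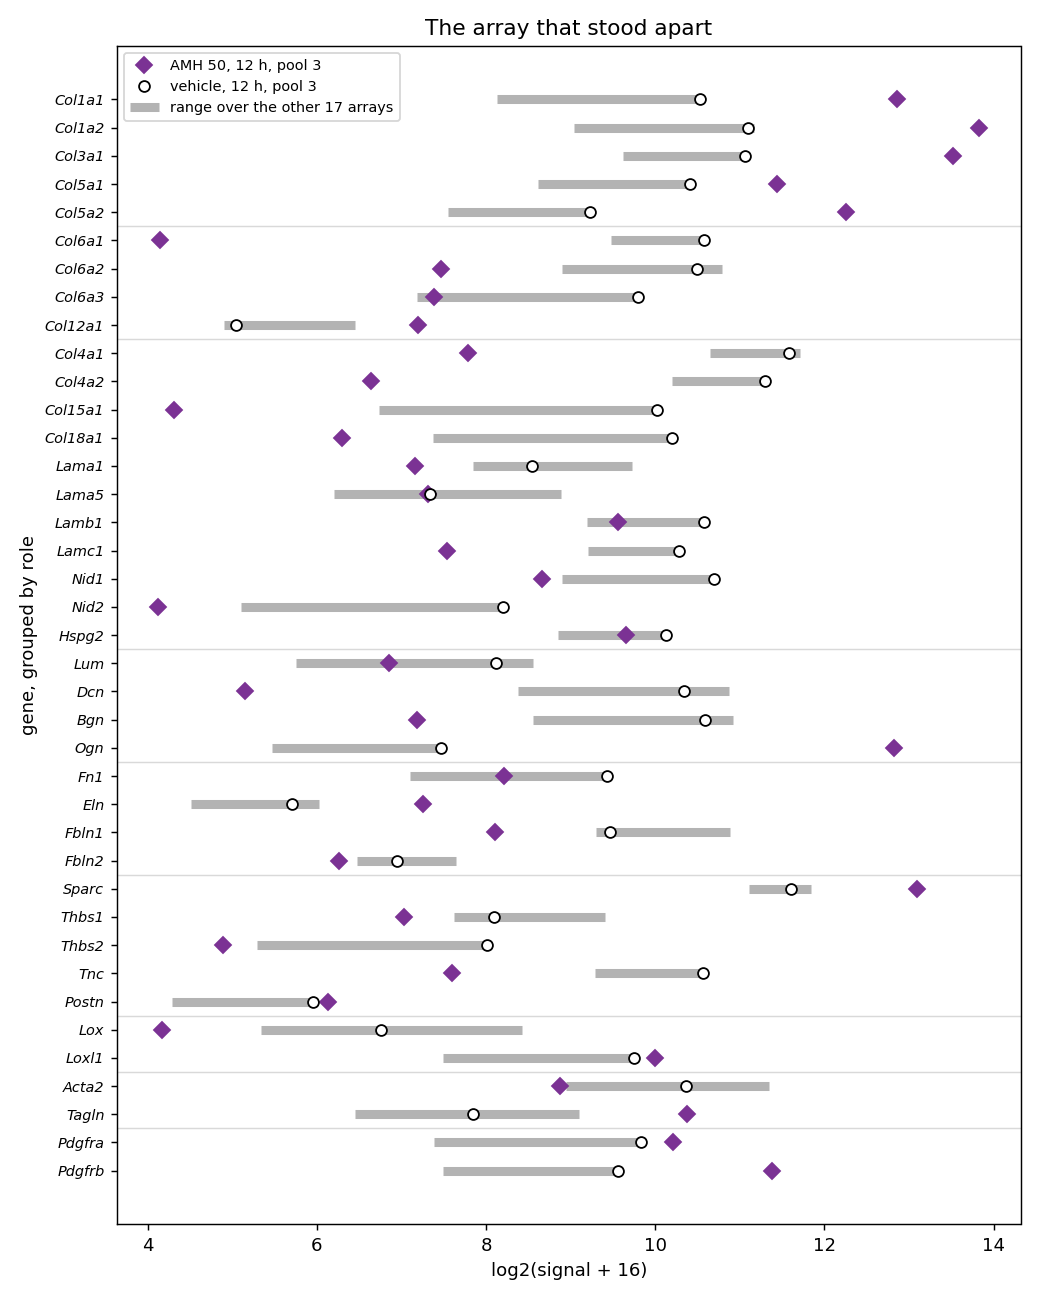
For each of the 39 genes the purple diamond is log2(signal + 16) in AMH 50 ng/mL, 12 h, pool 3, the open circle is the vehicle array of the same pool, and the grey bar spans the other 17 arrays. The diamond lies right of the bar for 14 genes, among them 5 of 5 fibrillar collagens, and left of it for 19.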

How the data were processed

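The deposited table holds signal intensity per probe set on a linear scale, made by the authors with MAS5 per the submitters' processing notes (version not given in the sources used here), and the 2% trimmed mean of each array is 150. Amplification from 5 ng RNA used a whole-transcript kit per the labels' protocols. For AMH at 12 h the sample descriptions name 24 h but titles and source names say 12 h; 12 h was taken.

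The members, lists and alternatives were chosen with earlier results of these data known. Each gene was represented by its brightest probe set over all arrays. Differences in log2(intensity + 16) were tested in limma (version 3.58.1, under R 4.3.3) by lmFit and a trended eBayes, with the pool as a block (17 arrays, 7 residual degrees of freedom) or, between times, the 6 vehicle arrays without a block. Tests were two-sided and p-values were adjusted by Benjamini-Hochberg over 22518 probe sets. Pools pair the arrays of a time per the labels' protocols, and deviations of same-pool arrays from their group means correlated at 0.067 to 0.497. Same-numbered vehicle arrays of 24 h and 12 h correlated at 0.207 to 0.318. The rule for differences named in a comparison allowed up to 6 members on each side; the text gives 3 on each side and 8 fixed members, a number settled after results were seen. The fits were tested on simulated data. Alternatives covered pseudocount, scaling, probe set choice, filter, block, array weights and left-out arrays. Array weights ended with a convergence warning. Figures were drawn with matplotlib 3.10.9.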

Additional observations from a re-analysis of the deposited data

Results flagged for a closer look

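The median difference of the 39 genes between AMH 50 ng/mL and vehicle had opposite signs at the 2 times. It was above 0 in each of 3 pools at 24 h, at 0.66, 0.12 and 0.03. In pool 3, 22 of the 39 genes were higher, and all genes had a median of 0.009. Without pool 1 the median at 24 h was 0.05. At 12 h it was below 0 in both pools, at -0.26 and -0.22. The means of the pool medians, 0.27 at 24 h and -0.24 at 12 h, differed by 0.510. This difference of the list was not tested, and the times came from different pools.

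In the array left out of the comparisons (AMH 50 ng/mL, 12 h, pool 3), 14 of the 39 genes lay above all other 17 arrays (35.9%, against 23.5% of all genes). Below all of them lay 19, a share of 48.7%, which is near the 49.9% of all genes.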

How the results depend on the processing

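Of 1574 values of single genes under the alternatives, 107 had the sign opposite to the reported difference, 6 passed the threshold where the reported one did not, and 1461 kept both. Under every alternative tried, 47 of 99 named differences kept their sign. Medians moved by less than the spread between pools in 95 of 105 cases, and the number of genes called kept its value in 125 of 129. In the dose comparisons with 3 pools, the standard deviation of the pool medians was 0.34 to 0.57, larger than the medians themselves. For AMH 50 ng/mL at 12 h it was 0.027. The 95 cases therefore do not measure how steady the medians were. Median centring shifted the median of all genes by 0.11 at AMH 50 ng/mL and 24 h, 0.14 at AMH 50 ng/mL and 12 h, -0.10 for the 2 doses and -0.10 between times. Probe sets called with array weights, whose fit ended with a convergence warning, were 1011 at AMH 50 ng/mL and 24 h, 8 at AMH 200 ng/mL and 24 h and 513 between doses, with 0 of the 38 genes. Between times, 0 to 778 probe sets were called over the alternatives. The cause of the changes below was not tested, and a small number of arrays limits every one of them.

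In AMH 50 ng/mL against vehicle at 24 h, Lama1 was 0.037 with median centring. In AMH 200 ng/mL against vehicle at 24 h, Col4a1 was 0.0051 with quantile normalization. Col15a1 was -0.0069 and Fn1 was 0.020 with array weights. In AMH 200 against 50 ng/mL at 24 h, Lama1 was -0.0047 with median centring. In AMH 200 ng/mL against vehicle at 12 h, Col3a1 was -0.088, Col4a1 was -0.048 and Lum was 0.042 with quantile normalization. Col3a1 was -0.28 and Acta2 was -0.12 with the mean of all probe sets. Nid2 was 0.019, Lama5 was -0.21, Col3a1 was -0.0076 and Dcn was -0.066 with array weights. In AMH 50 ng/mL against vehicle at 12 h, the median was -0.38, Lama5 was -0.027, Acta2 was -0.38, Col1a1 was 0.57 and Col3a1 was 0.53 with all 18 arrays. The median was -0.46 with a pseudocount of 1. The median was -0.32 with a pseudocount of 50. The median was -0.37 with quantile normalization. The median was -0.26 and Col4a1 was 0.054 with median centring. The median was -0.35 and Acta2 was -0.088 with the mean of all probe sets. The median was -0.26, Lama5 was -0.029 and Fn1 was 0.10 with 15 arrays (no pool 3 of 12 h). The median was -0.49, Lama5 was -0.12 and Acta2 was -0.12 with no replicate block. The median was -0.33 with array weights. For the effect of AMH 200 ng/mL at 24 h minus 12 h, Col3a1 was 0.088 and Col4a1 was 0.053 with quantile normalization. Acta2 was 0.031 and Col3a1 was 0.23 with the mean of all probe sets. Lama5 was 0.17, Nid2 was -0.13 and Fn1 was -0.11 with 15 arrays (no pool 3 of 12 h). Lama5 was 0.16 with array weights. For the effect of AMH 50 ng/mL at 24 h minus 12 h, Lama1 was 0.31, Fbln2 was 0.28 and Col3a1 was -0.25 with all 18 arrays. Fbln2 was 0.11 with 15 arrays (no pool 3 of 12 h). Fbln2 was 0.12 and Tagln was 0.20 with no replicate block. Fbln2 was 0.15 with array weights. For vehicle at 24 h against 12 h, Fn1 was -0.014 with a pseudocount of 50. Col3a1 was 0.0056 and Fn1 was -4.3e-05 with quantile normalization. Fn1 was -0.087 with median centring. Col1a1 was 0.089, Col3a1 was 0.20, Fn1 was -0.12 and Acta2 was -0.046 with the mean of all probe sets. The number of genes called was 1 with the replicate block. The number of genes called was 1, Col1a1 was 0.065, Col3a1 was 0.033 and Fn1 was -0.077 with array weights.

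Ranges without 1 replicate in AMH 50 ng/mL against vehicle at 24 h were -0.18 to 0.050 for Lama1, -0.11 to 0.37 for Col4a1 and -0.25 to 0.74 for Tagln. Leaving out 1 replicate at a time, in AMH 200 ng/mL against vehicle at 24 h, gave -0.91 to 0.025 for Lum, -0.38 to 0.96 for Nid2, -0.44 to 0.63 for Col15a1, -0.26 to 0.54 for Col1a1, -0.29 to 0.18 for Col3a1, -0.18 to 0.056 for Col4a1, -0.62 to 0.23 for Dcn and -0.21 to 0.064 for Fn1. Ranges without 1 replicate in AMH 200 against 50 ng/mL at 24 h were -0.55 to 0.073 for Col4a1 and -0.92 to 0.015 for Tagln. Leaving out 1 replicate at a time, in AMH 200 ng/mL against vehicle at 12 h, gave 0 to 2 for the number of genes called, -1.49 to 0.38 for Nid2, -1.50 to 0.033 for Fn1, -0.25 to 0.72 for Lama5, -0.13 to 0.82 for Col1a1, -0.32 to 0.29 for Col3a1, -0.99 to 0.58 for Lum and -0.57 to 0.42 for Dcn. Ranges without replicate 1 or 2 in AMH 50 ng/mL against vehicle at 12 h were -0.48 to -0.42 for the median. They were -0.23 to 0.80 for Tagln and -0.25 to 0.68 for Acta2. These fits kept the pool 3 arrays of 12 h, and the reported median of -0.41 lay outside the range. Without those pool 3 arrays the median was -0.26. Leaving out 1 replicate at a time, in the effect of AMH 200 ng/mL at 24 h minus 12 h, gave -0.80 to 0.17 for Lama5, -0.13 to 1.74 for Nid2, -0.69 to 0.27 for Col1a1, -0.35 to 0.29 for Col3a1, -1.11 to 0.46 for Lum, -0.67 to 0.47 for Dcn and -0.11 to 1.42 for Fn1. For the effect of AMH 50 ng/mL at 24 h minus 12 h without 1 replicate, pool 3 of 12 h was not left out. The ranges were -0.21 to 0.019 for Lama1, -0.017 to 0.46 for Col4a1, -0.19 to 0.86 for Acta2 and -0.59 to 0.47 for Tagln. Leaving out 1 replicate at a time, in vehicle at 24 h against 12 h, gave 0 to 2 for the number of genes called, -0.0037 to 1.23 for Lum, -0.59 to 0.50 for Col1a1, -0.26 to 0.27 for Col3a1, -0.31 to 0.050 for Col4a1, -0.015 to 1.04 for Dcn, -0.59 to 0.57 for Fn1 and -0.071 to 0.50 for Acta2.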
